A study of Homo sapiens with 9 samples.

Results

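Prostaglandin E2 is the lipid messenger that cyclooxygenases are best known for in tumour cells, and the mRNAs of 9 genes that make it, remove it or sense it were followed here: PLA2G4A, PTGS1, PTGS2, PTGES, PTGES2, PTGES3, HPGD, PTGER2 and PTGER4. They were chosen by their place in the pathway, by matching the Ensembl identifiers of the count table to these symbols, and not by their values. Earlier results of these data were, however, known when they were chosen. All 9 were among the 24344 genes of the table, and all 9 were among the 14195 that passed the filter on low counts and were tested. The cells were MDA-MB-231, a long-established line from a human breast adenocarcinoma, grown in DMEM with fetal bovine serum. Cells were exposed for 48 h to Compound Kushen Injection (CKI, 2 mg/mL of total alkaloids), a preparation of the herbs Kushen and Baituling. Other cells were exposed for the same 48 h to an injection of Kushen alone or of Baituling alone, diluted in the same ratio. Total RNA was sequenced as unstranded paired-end libraries, 3 for each treatment. All groups share the line, the medium and the exposure time, a single line is the only model, and cells without treatment were not analysed here, so each difference below is between 2 treatments and not from an untreated state.

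In this pathway cytosolic phospholipase A2 frees arachidonic acid from membranes, and a cyclooxygenase turns it into the unstable prostaglandin H2, from which terminal synthases make prostaglandin E2. The constitutive isozyme is encoded by PTGS1 (COX-1), and the isozyme that cytokines, growth factors and stress induce in many cells by PTGS2 (COX-2). Prostaglandin E2 leaves the cell and acts on receptors such as EP2 and EP4, which raise cyclic AMP, until HPGD, hydroxyprostaglandin dehydrogenase, inactivates it. PTGS2 is an early-response gene whose mRNA is short-lived, because its 3′ UTR is rich in AU elements, and its promoter is a textbook target of the factors that bind cyclic AMP response elements, C/EBP sites and NF-kB sites.

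The sequences just before the transcription start of both cyclooxygenase genes are shown because the treatments ordered these paralogs differently, and those of HPGD and PLA2G4A because they were called against Baituling together with PTGS1. Each line gives the 250 bases before the start of the MANE Select transcript, read 5′ to 3′ on the strand of the gene from build GRCh37. Capitals mark matches, on either strand, to the TATA box TATAAA, the cyclic AMP response element core CGTCA, the C/EBP motif TTNNGCAA and the NF-kB-like motif GGANNNNCC. The windows are chr1:186649556-186649805 on the minus strand for PTGS2, chr9:125133053-125133302 on the plus strand for PTGS1, chr4:175443640-175443889 on the minus strand for HPGD and chr1:186797831-186798080 on the plus strand for PLA2G4A.
PTGS2: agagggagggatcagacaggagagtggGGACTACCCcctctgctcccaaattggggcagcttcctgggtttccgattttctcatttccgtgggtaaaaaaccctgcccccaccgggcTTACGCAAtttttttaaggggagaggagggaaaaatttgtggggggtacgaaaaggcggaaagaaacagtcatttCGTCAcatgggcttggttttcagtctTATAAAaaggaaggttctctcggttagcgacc
PTGS1: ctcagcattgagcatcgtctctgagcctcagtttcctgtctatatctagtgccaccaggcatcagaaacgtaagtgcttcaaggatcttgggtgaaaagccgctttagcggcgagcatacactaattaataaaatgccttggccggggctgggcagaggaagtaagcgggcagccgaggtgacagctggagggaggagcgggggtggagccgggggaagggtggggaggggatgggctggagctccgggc
HPGD: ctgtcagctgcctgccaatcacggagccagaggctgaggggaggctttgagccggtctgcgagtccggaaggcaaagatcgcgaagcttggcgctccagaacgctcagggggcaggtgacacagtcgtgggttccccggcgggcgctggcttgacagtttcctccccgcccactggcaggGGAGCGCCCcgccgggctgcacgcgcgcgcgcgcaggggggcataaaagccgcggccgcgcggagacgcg
PLA2G4A: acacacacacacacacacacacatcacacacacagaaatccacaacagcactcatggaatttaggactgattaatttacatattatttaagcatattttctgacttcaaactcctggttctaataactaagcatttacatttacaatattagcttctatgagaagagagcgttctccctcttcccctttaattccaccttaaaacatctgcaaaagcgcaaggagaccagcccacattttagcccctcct

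The PTGS2 window held 1 match to each of these 4 motifs. The NF-kB-like match began 223 bases before the start, the C/EBP match at 133, the CGTCA at 58 and the TATA box at 32. Of the promoters of 18922 MANE Select transcripts, 9.11% held TATAAA, 25.7% CGTCA, 7.09% the C/EBP motif and 54.0% the NF-kB-like motif, so the last of these is not selective. HPGD held the NF-kB-like motif alone, and the PTGS1 and PLA2G4A windows held none of the 4. Neither TATAAA nor the C/EBP motif was found in the other 8 genes, and CGTCA was also found in PTGES3 and PTGER2. Of 4 further motifs searched on both strands, the AP-1 site TGANTCA (4.71% of promoters) and the E-box CACGTG (7.90%) were in none of the 9 windows. The xenobiotic response core GCGTG (40.7%) was in 6 of them, all but those of PLA2G4A, PTGS1 and PTGS2, and the antioxidant response core TGANNNNGC (35.1%) was in those of PTGES2 and PTGES3. The motifs can overlap one another, and a match or its absence describes these letters only.

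No window of 30 bases in the 3′ UTR of PTGS2 held more ATTTA pentamers than the 30 bases right after the stop codon (chr1:186643455-186643484, GRCh37, minus strand), which are shown for that reason, with the pentamers in capitals.
PTGS2 3′ UTR: aagtctaatgatcatATTTATTTATTTAta
These 30 bases hold 3 overlapping pentamers, and the whole 3′ UTR of 2562 bases holds 22. As many or more were found in 2.86% of 13055 tested genes with a MANE Select 3′ UTR, whose median is 2. Per kilobase the 3′ UTR of PTGS2 held 8.59 pentamers, that of PLA2G4A 8.46 (4 in 473 bases) and that of PTGER4 6.63 (9 in 1357 bases), densities reached by 1.59%, 1.69% and 3.86% of those genes. PTGS1 had 3 pentamers in 3159 bases, PTGES 1 in 1262 and PTGES2 none in 452. PTGES3, HPGD and PTGER2 lay between, with 6, 5 and 5.

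The total count of a library was 20144628 to 23782071. Levels are given as CPM, counts brought to a common size of library, on sizes scaled by TMM, a method that sets the bulk of genes equal between libraries, and differences were tested by the quasi-likelihood test of edgeR with Benjamini-Hochberg adjustment over the genes tested. To be called, a gene needed an adjusted p under 0.05 together with a log2 fold change beyond 1 or -1. Scaling by library totals instead moved the median gene by 0.08, 0.29 and 0.21 on the log2 scale for CKI over Kushen, CKI over Baituling and Kushen over Baituling, and changes are given relative to the TMM scale. Of the markers of the line, VIM, CD44, AXL, CAV1, FOSL1 and KRT18 had 3122 to 43383 counts in every library, while SPARC had only 19 to 60. VIM was 5.90-fold lower under CKI than under Baituling, and CAV1, KRT18 and SPARC were also called lower in both comparisons with Baituling. ESR1 and PGR had at most 4 counts, but the luminal markers ERBB2 (1412 to 2155), GATA3 (196 to 453), EPCAM (162 to 280) and CDH1 (11 to 51) were present, and GATA3 and CDH1 were called lower in both comparisons with Baituling. FOXA1 had 6 to 23 counts under CKI, 6 to 15 under Kushen and 0 to 4 under Baituling. Of the markers of other cell types, PTPRC, CD3E, CDH5 and ADIPOQ had 0 to 9 counts in a library and CD14 116 to 215. VWF, of endothelium, had 18 to 26 counts under CKI, 10 to 13 under Kushen and 2 to 3 under Baituling. It would not have passed the filter on low counts without the CKI libraries. CDH5, also of endothelium, had 0 to 1, 1 to 3 and 0 to 3 counts in the same order of groups, and PLIN1, of adipocytes, 15 to 34, 17 to 24 and 4 to 10. CD14 was highest under Baituling, at 7.72, 5.94 and 10.1 CPM. The part of these markers in the results was not tested. In a bulk sample, fewer cells that express a gene and less of its RNA per cell cannot be told apart. The labels do not say whether the 3 libraries of a group came from separate cultures, so p-values measure the spread between these libraries.

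PLA2G4A (ENSG00000116711, chromosome 1, 186798081 to 186958113, plus strand), the cytosolic phospholipase A2 that supplies arachidonic acid, was highest under CKI and lowest under Baituling. Its counts were 256, 249 and 277 under CKI, 164, 153 and 170 under Kushen and 61, 75 and 87 under Baituling, which gave 10.3 ± 0.521, 6.81 ± 0.657 and 3.96 ± 0.923 CPM (mean ± SD, n = 3). The libraries of the 3 groups did not overlap. CKI exceeded Baituling by a log2 fold change of 1.39 ± 0.14 (SE; 2.63-fold; edgeR adjusted p = 1.72e-08) and was called. Kushen exceeded Baituling by 0.79 ± 0.15 (adjusted p = 7.42e-05 in edgeR) and CKI exceeded Kushen by 0.61 ± 0.12 (edgeR adjusted p = 0.000508), both short of the limit on the fold change.

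The cyclooxygenases differed in the group where they were lowest. PTGS2 (ENSG00000073756, chromosome 1, 186640923 to 186650054, minus strand) had 229, 257 and 209 counts under CKI, 66, 59 and 51 under Kushen and 134, 140 and 142 under Baituling. In CPM these were 8.98, 10.4 and 8.25 under CKI, 2.66, 2.42 and 2.26 under Kushen and 6.54, 7.68 and 7.84 under Baituling. Kushen was thus the low group, with every library below all 6 of the others, and the lowest CKI library lay just above the highest Baituling library. CKI exceeded Kushen by a log2 fold change of 1.91 ± 0.13 (3.75-fold, 95% interval 1.63 to 2.18 on the log2 scale, edgeR adjusted p = 2.86e-09). Kushen lay below Baituling, with a log2 fold change of -1.58 ± 0.14 (adjusted p = 6.33e-09 in edgeR), so Baituling was 2.99-fold higher. These were the calls on PTGS2. CKI exceeded Baituling by only 0.33 ± 0.12 (edgeR adjusted p = 0.0153), and this adjusted p rose to 0.105 without the second CKI library and to 0.0920 without the first Baituling library. PACERR, a long noncoding RNA on the opposite strand that shares 219 exonic bases with PTGS2, had 0 to 6 counts in a library.

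PTGS1 (ENSG00000095303, chromosome 9, 125132809 to 125157982, plus strand) was lowest under Baituling instead. It had 112, 96 and 101 counts under CKI, 85, 64 and 56 under Kushen and 8, 21 and 18 under Baituling, or 4.08 ± 0.275, 2.84 ± 0.504 and 0.845 ± 0.402 CPM. No library of one group overlapped another group, and the first Baituling library, with 8 counts, was the lowest. CKI exceeded Baituling by a log2 fold change of 2.29 ± 0.25 (4.90-fold, edgeR adjusted p = 8.02e-08) and Kushen exceeded Baituling by 1.78 ± 0.27 (3.42-fold, edgeR adjusted p = 6.67e-06). CKI versus Kushen gave 0.52 ± 0.19 (edgeR adjusted p = 0.0339). That last adjusted p rose above 0.05 when any of 5 libraries was left out, the 3 of CKI and the second and the third of Kushen, with a highest value of 0.138 without the third Kushen library, and to 0.0662 in DESeq2. The 8 counts of one library carry a large counting error, so the size of the difference from Baituling is less certain than its direction. A long noncoding RNA gene, ENSG00000269970, overlaps PTGS1 on the same strand.

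**Figure D1:**
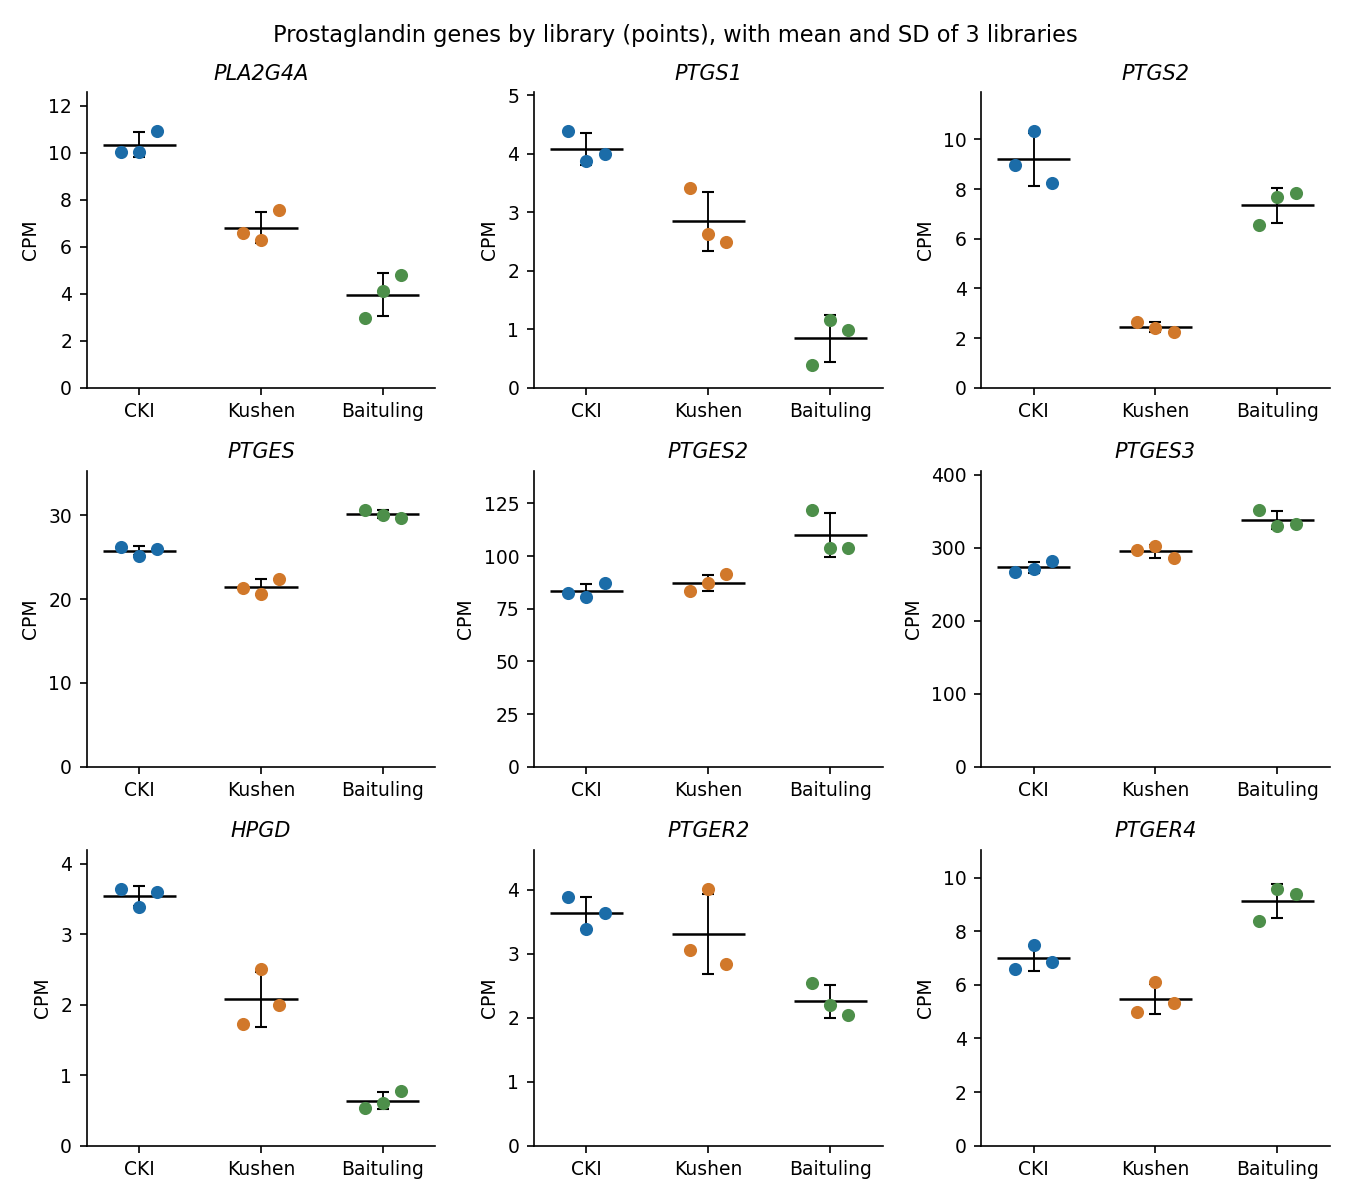
Each panel gives 1 gene, with CPM on a linear vertical axis that starts at 0 and the 3 treatments on the horizontal axis; points are libraries, and the bar and whiskers are the mean and SD of 3 libraries. PLA2G4A, PTGS1 and HPGD step down from CKI to Kushen to Baituling, PTGS2 is lowest under Kushen (2.26 to 2.66 CPM), and PTGES, PTGES2, PTGES3 and PTGER4 are highest under Baituling on the TMM scale, which with library totals no longer holds for PTGES and PTGES3.

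Within a library the ratio of both cyclooxygenase mRNAs does not depend on the scaling. Per kilobase of exon, the log2 ratio of PTGS2 to PTGS1 was 1.11, 1.5 and 1.13 under CKI, -0.29, -0.04 and -0.06 under Kushen and 4.14, 2.81 and 3.06 under Baituling. PTGS2 was therefore the more abundant of the pair in every CKI and Baituling library and slightly the less abundant in every Kushen library. The mean log2 ratio was 1.24 ± 0.22 under CKI, -0.13 ± 0.14 under Kushen and 3.34 ± 0.71 under Baituling (SD, n = 3), and the longest transcript in place of all exonic bases gave 1.26, -0.11 and 3.35. Each of the 3 pairs of groups separated fully, with a two-sided exact permutation p = 0.1, the smallest that 3 libraries against 3 allow. Without the first Baituling library, in which PTGS1 had its lowest count, the Baituling mean was 2.94.

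**Figure D2:**
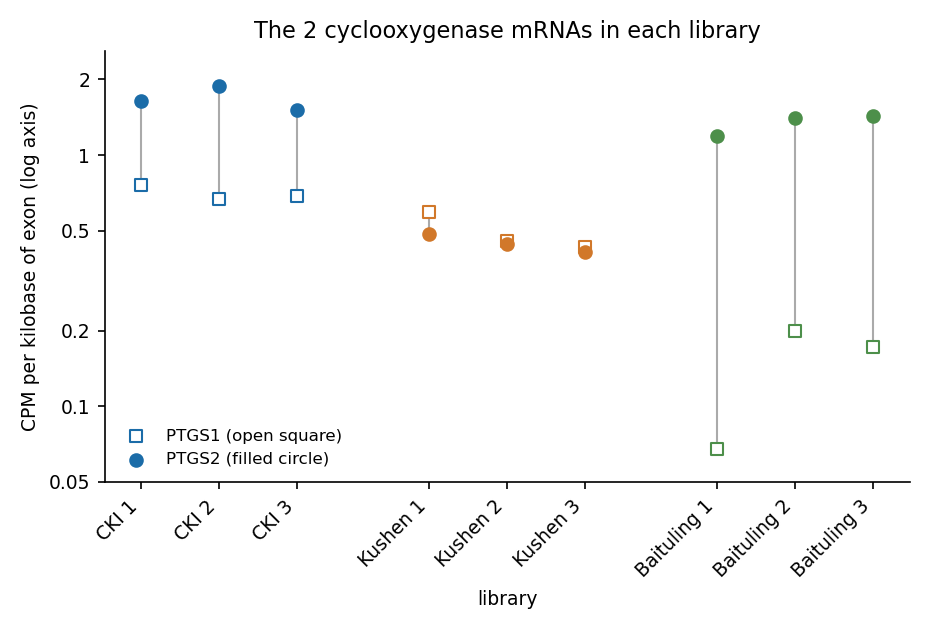
CPM per kilobase of exon, on a log axis, of PTGS1 (open squares) and PTGS2 (filled circles) in each of the 9 libraries, with a line joining the pair of 1 library. The symbols nearly coincide under Kushen, and are farthest apart under Baituling, where PTGS1 is at 0.0675 to 0.199 and PTGS2 at 1.19 to 1.43.

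The 3 prostaglandin E synthases changed little beside the enzymes upstream of them, and none was called in any comparison. PTGES (ENSG00000148344, chromosome 9, 132500610 to 132515321, minus strand), the inducible microsomal synthase that is usually coupled to COX-2, measured 26.2, 25.2 and 25.9 CPM under CKI, 21.3, 20.6 and 22.4 under Kushen and 30.7, 30.05 and 29.7 under Baituling. The groups did not overlap, with Kushen lowest as for PTGS2 but Baituling highest on the TMM scale. CKI exceeded Kushen by a log2 fold change of 0.27 ± 0.06 (edgeR adjusted p = 0.00162), and Kushen was below Baituling by -0.49 ± 0.06 (adjusted p = 5.85e-07 in edgeR). CKI was below Baituling by -0.23 ± 0.06 (edgeR adjusted p = 0.00213), a direction that turned to 0.06 when library totals were used for scaling.

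PTGES2 (ENSG00000148334, chromosome 9, 130882972 to 130890741, minus strand), a membrane-associated synthase, averaged 83.4 ± 3.42 CPM under CKI, 87.2 ± 3.98 under Kushen and 110 ± 10.5 under Baituling. All Baituling libraries lay above the others, while the CKI and Kushen libraries overlapped. Its log2 fold change was -0.40 ± 0.06 in CKI versus Baituling (edgeR adjusted p = 4.97e-06) and -0.34 ± 0.06 in Kushen versus Baituling (edgeR adjusted p = 4.50e-05). In CKI versus Kushen it was -0.06 with a 95% interval of -0.19 to 0.06 (edgeR adjusted p = 0.417), and 0.01 with library totals.

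PTGES3 (ENSG00000110958, chromosome 12, 57057125 to 57082192, minus strand) encodes the cytosolic synthase, which is also known as p23, a cochaperone of HSP90. It averaged 273 ± 7.89 CPM under CKI, 295 ± 8.55 under Kushen and 338 ± 12.2 under Baituling, and the 3 groups did not overlap. The log2 fold change was -0.31 ± 0.04 in CKI versus Baituling (edgeR adjusted p = 1.78e-06), -0.20 ± 0.04 in Kushen versus Baituling (edgeR adjusted p = 0.000343) and -0.11 ± 0.04 in CKI versus Kushen (edgeR adjusted p = 0.0414). With library totals these were -0.02, 0.01 and -0.04, with adjusted p-values of 0.594, 0.749 and 0.467, so the differences in PTGES3 are not separable from the choice of scaling. Per kilobase of exon PTGES3 made up 74.6% of the summed level of the 3 synthases under CKI, 77.1% under Kushen and 74.5% under Baituling. PTGES took 12.7%, 10.1% and 12.0% in the same order and PTGES2 12.7%, 12.8% and 13.5%. The share of PTGES2 depends on its length, since its gene model has 6084 exonic bases and its longest transcript 3473.

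HPGD (ENSG00000164120, chromosome 4, 175411326 to 175444305, minus strand), the enzyme that inactivates prostaglandin E2, had the largest log2 fold change of the 9 genes over the 3 comparisons. It had 93, 84 and 91 counts under CKI, 43, 61 and 45 under Kushen and 11, 11 and 14 under Baituling. These were 3.54 ± 0.139, 2.08 ± 0.393 and 0.638 ± 0.122 CPM, in 3 ranges that did not overlap. CKI exceeded Baituling by a log2 fold change of 2.47 ± 0.23 (5.55-fold, edgeR adjusted p = 8.55e-09), and Kushen exceeded Baituling by 1.70 ± 0.25 (3.26-fold, edgeR adjusted p = 6.16e-06). Both were called. CKI exceeded Kushen by 0.77 ± 0.17 (1.70-fold, edgeR adjusted p = 0.00162), short of the limit on the fold change. A long noncoding RNA gene on the opposite strand, ENSG00000251584, shares 314 exonic bases with HPGD and was not analysed here.

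The mRNAs of PTGES and HPGD therefore differed in balance, where PTGES is 10.1% to 12.7% of the summed level of the 3 synthases. In CKI versus Baituling the log2 fold change was 2.47 for HPGD and -0.23 for PTGES, so most of that difference lay in HPGD. HPGD had only 11 to 14 counts in a Baituling library. Per kilobase of exon the log2 ratio of PTGES to HPGD was 4.41 ± 0.03 under CKI, 4.93 ± 0.31 under Kushen and 7.13 ± 0.29 under Baituling (SD, n = 3). The Baituling libraries, at 6.81 to 7.39, lay above all others, and the highest CKI library (4.44) lay below the lowest Kushen library (4.59). Each pair of groups gave a two-sided exact permutation p = 0.1, again the smallest possible. With the longest transcript as the length the ratios were 3.51, 4.03 and 6.22.

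The receptors did not move together. PTGER4 (ENSG00000171522, chromosome 5, 40680017 to 40693837, plus strand), the EP4 receptor, had 6.59, 7.49 and 6.87 CPM under CKI, 4.99, 6.11 and 5.32 under Kushen and 8.39, 9.60 and 9.38 under Baituling. The groups did not overlap, with Baituling highest and Kushen lowest, the order also seen for PTGES. Kushen versus Baituling gave a log2 fold change of -0.73 ± 0.11 (edgeR adjusted p = 9.80e-06) and CKI versus Baituling -0.38 ± 0.11 (adjusted p = 0.00365 in edgeR), the latter -0.10 with an adjusted p of 0.428 under library totals. CKI exceeded Kushen by 0.35 ± 0.11 (edgeR adjusted p = 0.0189), and that adjusted p was 0.0525 in DESeq2, 0.0841 without the second CKI library, 0.0780 without the first Kushen library and 0.0595 without the third. TTC33 on the opposite strand overlaps the PTGER4 gene but shares no exonic base with it.

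PTGER2 (ENSG00000125384, chromosome 14, 52781023 to 52795316, plus strand), the EP2 receptor, had 3.88, 3.38 and 3.63 CPM under CKI, 3.06, 4.02 and 2.84 under Kushen and 2.54, 2.19 and 2.04 under Baituling. Baituling was lowest in every library, and the CKI and Kushen libraries overlapped. CKI exceeded Baituling by a log2 fold change of 0.68 ± 0.18 (edgeR adjusted p = 0.00178) and Kushen exceeded Baituling by 0.55 ± 0.18 (edgeR adjusted p = 0.0108, 0.0801 without the second Kushen library). In CKI versus Kushen the log2 fold change was 0.13 with a 95% interval of -0.20 to 0.46 (edgeR adjusted p = 0.531). Per kilobase of exon the log2 ratio of PTGER4 to PTGER2 was 0.42 ± 0.19 under CKI, 0.22 ± 0.15 under Kushen and 1.49 ± 0.26 under Baituling. The Baituling libraries, at 1.2 to 1.68, lay above the other 6, with an exact permutation p = 0.1 against either group, whereas CKI and Kushen overlapped (exact permutation p = 0.2).

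The comparison of CKI with Kushen asks what differs when Baituling is part of the mixture, and that of CKI with Baituling what differs when Kushen is. In CKI versus Kushen 1 of the 9 genes was called, PTGS2, which was higher, where 1.90% of all genes tested were called, 1.70% higher and 0.197% lower. At an adjusted p under 0.05 alone 7 of 9 differed, all but PTGES2 and PTGER2, beside 39.8% of all genes (5 of 9 in DESeq2, which left out PTGS1 and PTGER4), and the same 7 did not overlap between the groups, beside 49.5%. In CKI versus Baituling 3 of 9 were called, HPGD, PTGS1 and PLA2G4A, all higher, beside 19.1% of all genes (11.2% higher, 7.91% lower). In Kushen versus Baituling 3 of 9 were called, HPGD and PTGS1 higher and PTGS2 lower, beside 15.2% (8.50% higher, 6.73% lower). In both comparisons with Baituling all 9 had an adjusted p under 0.05 and did not overlap. The background there was high, 76.1% and 71.6% of all genes by adjusted p and 78.3% and 73.1% by overlap, so these counts of 9 are not a result about the prostaglandin genes. The comparisons share libraries and are not independent of one another.

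**Figure D3:**
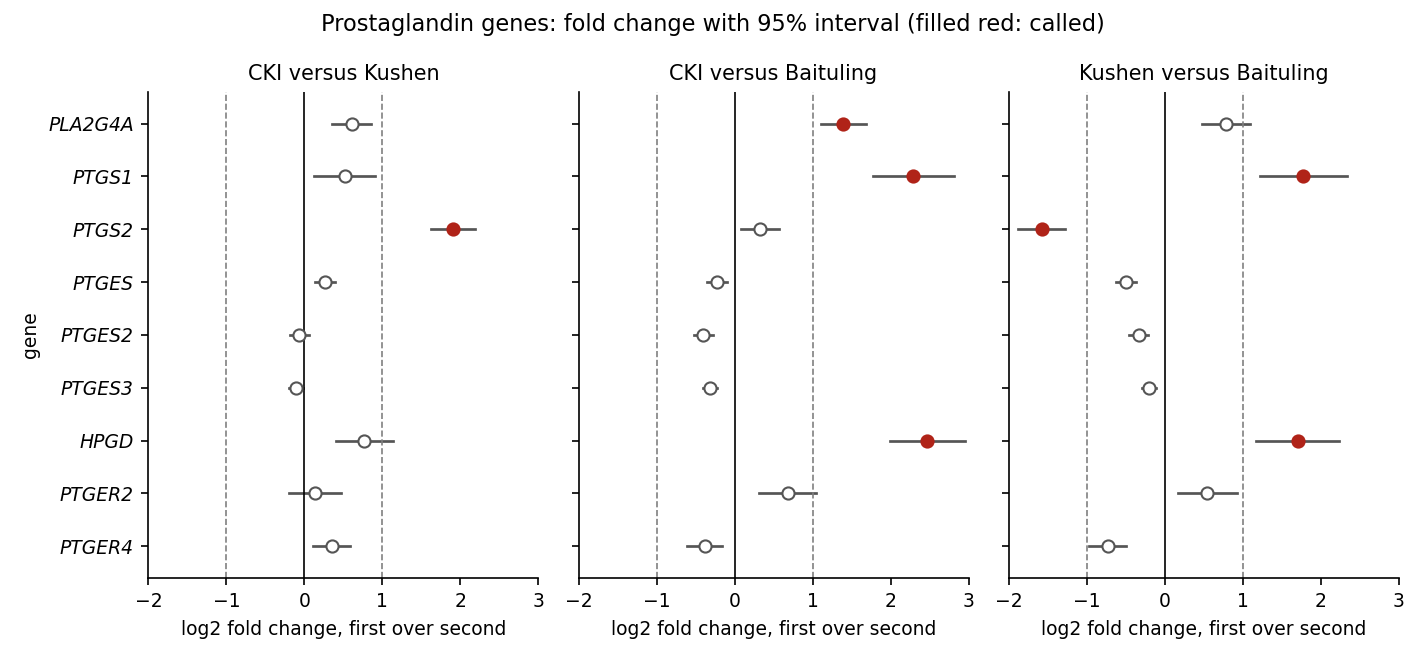
Log2 fold changes (horizontal axis, first group over second) of the 9 genes in the 3 comparisons, with 95% intervals from the edgeR fit; dashed lines mark 1 and -1 and filled red points are called genes. PTGS2 is the point beyond 1 in CKI versus Kushen (1.91), and PLA2G4A, PTGS1 and HPGD are the points beyond 1 in CKI versus Baituling (1.39, 2.29 and 2.47).

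The median log2 fold change of the 9 genes was 0.35 in CKI versus Kushen, 0.33 in CKI versus Baituling and -0.20 in Kushen versus Baituling, beside 0.01, 0.03 and 0.02 over all genes tested. Against Baituling the genes split. PLA2G4A, both cyclooxygenases, HPGD and PTGER2 were higher in CKI at an adjusted p under 0.05, and the 3 synthases and PTGER4 were lower, beside 39.1% higher and 37.0% lower of all genes tested. With library totals the former 5 still had an adjusted p under 0.05 and the latter 4 did not, and PTGES was higher in CKI by 0.06. Of the order of the groups, CKI over Kushen over Baituling was found for PLA2G4A, PTGS1 and HPGD, and for PTGER2 with CKI and Kushen not told apart. PTGS2 alone had CKI over Baituling over Kushen. On the TMM scale PTGES and PTGER4 had Baituling over CKI over Kushen, and PTGES2 and PTGES3 had Baituling over Kushen over CKI, with Kushen and CKI not told apart for PTGES2. Library totals aside, some steps of these orders lost an adjusted p under 0.05 under alternatives. They were CKI to Kushen for PTGS1, PTGES3 and PTGER4, CKI to Baituling for PTGS2 and Kushen to Baituling for PTGER2.

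Around these genes, 76 further genes of arachidonate and eicosanoid metabolism and of the regulation of PTGS2 and PTGES3 were listed in 8 groups, and 57 were tested. Of these, PLA2G2A, PLA2G4D, PLA2G5, PTGER3 and SLCO2A1 would not have passed the filter on low counts without the libraries of 1 group, so their counts are given where they are named, but no test. Of the other 52, 1 was called in CKI versus Kushen (ZFP36, higher), 10 in CKI versus Baituling (8 higher and 2 lower) and 12 in Kushen versus Baituling (9 higher and 3 lower). These are 1.92%, 19.2% and 23.1%, beside 1.34%, 17.3% and 13.9% of the 13618 genes of the table that passed in the same way. An adjusted p under 0.05 was reached by 25, 38 and 38 of the 52, or 48.1%, 73.1% and 73.1%, beside 40.8%, 76.7% and 72.7%, so the counts by adjusted p lie near the background.

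Among the terminal enzymes of other prostanoids, AKR1B1 and AKR1C3 were called. AKR1B1, aldose reductase, which also acts as a prostaglandin F synthase, averaged 189 CPM under Baituling, 559 under Kushen and 890 under CKI. Its log2 fold change was 2.24 ± 0.04 in CKI versus Baituling (edgeR adjusted p = 6.84e-19), 1.57 ± 0.04 in Kushen versus Baituling (edgeR adjusted p = 1.07e-16) and 0.67 ± 0.04 in CKI versus Kushen (edgeR adjusted p = 3.34e-10). AKR1C3, another aldo-keto reductase with prostaglandin F synthase activity, averaged 133 CPM under CKI, 108 under Kushen and 16.8 under Baituling. It was called in both comparisons with Baituling, at 2.98 ± 0.06 and 2.68 ± 0.06 on the log2 scale, with counts that are uncertain because of near-identical paralogs. Of the 5 tested genes of the list of other prostanoid synthases, 3 were higher (AKR1B1, AKR1C3 and CBR1) and 1 lower (FAM213B) in CKI than in Baituling at an adjusted p under 0.05. The other, TBXAS1, the gene of thromboxane synthase, averaged 9.10 CPM under CKI, 9.04 under Kushen and 10.7 under Baituling, with a log2 fold change of -0.23 ± 0.11 in CKI versus Baituling (edgeR adjusted p = 0.0606).

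On the breakdown side PTGR1, a reductase that acts on the products of HPGD and on leukotriene B4, was on the same side as HPGD in both comparisons with Baituling. It averaged 141 CPM under CKI, 122 under Kushen and 55.3 under Baituling, with log2 fold changes of 1.35 ± 0.05 and 1.14 ± 0.05 over Baituling (edgeR adjusted p = 3.75e-15 and 7.74e-14). CKI exceeded Kushen by 0.21 ± 0.04 (edgeR adjusted p = 0.00116). It overlaps ZNF483 on the opposite strand. Of the 5 genes of breakdown and transport, all tested, PTGR1 was called higher in CKI than in Baituling, and SLCO2A1, the prostaglandin transporter gene, had 3 to 6 counts under CKI, 6 to 12 under Kushen and 16 to 24 under Baituling. In CKI versus Kushen PTGR2, ZADH2 and ABCC4 were lower at an adjusted p under 0.05 and PTGR1 was higher, beside 20.2% and 19.6% of all genes. At the same limit ZADH2 was lower in CKI than in Baituling (37.0% of all genes). PTGR2 and ABCC4 were higher in Kushen than in Baituling (5047 of 14195 genes). SLCO2A1, PTGR2, ZADH2, ABCC4 and the other genes below that are given without a level in CPM, PLA2G2A and ALOX5 aside, were named after their values were seen.

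Of 18 phospholipases A2 listed, 9 were tested, and PLA2G12A and PLA2G4B were called higher than in Baituling in both comparisons, beside 11.2% of all genes in CKI and 8.50% in Kushen. PLA2G4B was near the limit of the filter on low counts, which 2 CKI, 3 Kushen and 1 Baituling libraries reached. It also overlaps JMJD7-PLA2G4B on the same strand and SPTBN5 on the opposite strand. PLA2G12A, a secreted enzyme, averaged 66.1 CPM under CKI and 74.1 under Kushen but 29.6 under Baituling (log2 fold changes 1.16 ± 0.05 and 1.32 ± 0.05). PLA2G2A, a secreted phospholipase of inflammation, had 7 to 9 counts under CKI, 10 to 13 under Kushen and 65 to 86 under Baituling. PLA2G5, another secreted enzyme, had 1 to 4 counts under CKI, 0 in all Kushen libraries and 12 to 25 under Baituling. None of the 10 genes of arachidonate supply was called in any comparison. Of all genes, 1.90% were called in CKI versus Kushen, 19.1% in CKI versus Baituling and 15.2% in Kushen versus Baituling. At an adjusted p under 0.05, 2 were higher and 6 lower in CKI than in Baituling, beside 39.1% and 37.0% of all genes. In CKI versus Kushen 1 was higher and 5 lower, beside 19.6% and 20.2%. Kushen versus Baituling gave 3 higher and 4 lower, beside 5047 and 5121 of the 14195 genes tested.

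In the lipoxygenase branch, which competes for arachidonic acid, 7 of 11 genes were tested, and 4 were called higher (ALOX5, ALOX12, ALOX12B and LTB4R) and 1 lower (ALOX5AP) in Kushen than in Baituling, beside 8.50% and 6.73% of all genes. The limit of the filter on low counts was reached by 0 Baituling libraries for ALOX12B and 1 for ALOX5. For ALOX5AP it was reached by 1 CKI and 2 Kushen libraries, so the calls on these genes rest on low counts. ALOX5, which starts leukotriene synthesis, had 35 to 43 counts under CKI, 38 to 44 under Kushen and 6 to 14 under Baituling. It was called in CKI versus Baituling (1.60 ± 0.31) and in Kushen versus Baituling (1.82 ± 0.31). ALOX12 and LTB4R, a leukotriene B4 receptor gene that overlaps LTB4R2 on the same strand, were called in Kushen versus Baituling at 1.17 ± 0.26 and 1.13 ± 0.16. In CKI versus Baituling they measured 0.91 ± 0.27 and 0.93 ± 0.16, below the limit on the fold change. Of the other prostanoid receptors 4 of 7 were tested. PTGER1, PTGFR and TBXA2R were not called in CKI versus Baituling, and PTGER3 had 18 to 25 counts under CKI, 9 to 17 under Kushen and 1 to 3 under Baituling.

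**Figure D4:**
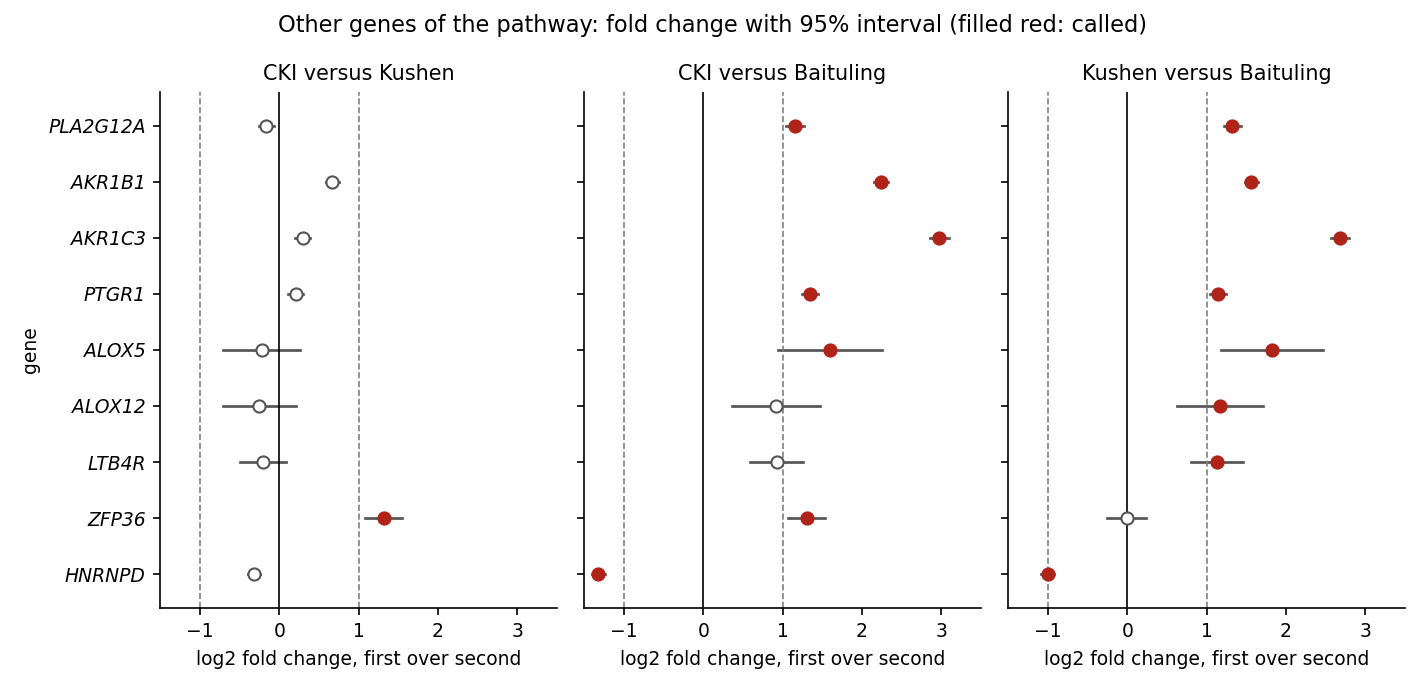
Log2 fold changes (horizontal axis, first group over second) of 9 further genes of the pathway with 95% intervals from the edgeR fit; dashed lines mark 1 and -1 and filled red points are called genes. In both comparisons with Baituling AKR1C3 lies farthest to the right (2.98 and 2.68) and HNRNPD farthest to the left, and ZFP36 is the gene beyond 1 in CKI versus Kushen (1.31).

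Proteins that bind AU-rich elements such as those of PTGS2 were listed as well, and all 9 of their genes were tested. ZFP36 encodes tristetraprolin, which promotes the decay of such mRNAs and is itself an early-response gene. It had 87.2, 86.8 and 85.7 CPM under CKI, 34.2, 27.4 and 43.1 under Kushen and 30.5, 32.8 and 41.8 under Baituling. CKI stood above both, by 1.31 ± 0.11 against Kushen (edgeR adjusted p = 2.81e-08) and 1.31 ± 0.11 against Baituling (edgeR adjusted p = 2.25e-09), and Kushen and Baituling overlapped (log2 fold change -0.01, 95% interval -0.26 to 0.24). PTGS2 and ZFP36 were thus both called higher in CKI than in Kushen, but differed in Baituling, where PTGS2 was high and ZFP36 was not. HNRNPD, which encodes the AU-element binding protein AUF1, averaged 266 CPM under CKI, 332 under Kushen and 665 under Baituling. It was lower by 1.32 on the log2 scale in CKI than in Baituling (SE 0.04, edgeR adjusted p = 1.95e-16). In Kushen versus Baituling it was -1.004 ± 0.04, at the edge of the limit on the fold change. Of the other genes of this list, ZFP36L1 and CELF1 were higher and ZFP36L2, ELAVL1, KHSRP and TIA1 lower in CKI than in Baituling at an adjusted p under 0.05, by -0.88 to 0.17 on the log2 scale, where 39.1% of all genes were higher and 37.0% lower.

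HSP90 and its cochaperones, the other partners of PTGES3, gave no call among 8 genes tested. In CKI versus Baituling 6 of the 8 were lower at an adjusted p under 0.05, as PTGES3 was, and PPID was higher, beside 37.0% and 39.1% of all genes, with a median log2 fold change of -0.19 beside 0.03 for all genes, a distance smaller than the 0.29 by which library totals move the median gene. In CKI versus Kushen HSP90AA1, HSP90AB1 and FKBP5 were lower and STIP1 higher, beside 20.2% and 19.6%.

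The genes whose log2 CPM followed 3 of the prostaglandin genes most closely over the 9 libraries were looked up among the 11964 genes whose mean log2 CPM was 1 or more, as a description, since all 9 libraries fall into 3 groups and 2 of them can fix most of a correlation. For PTGS2 these were ZFAND2A (Pearson r = 0.986), UPF3B (0.985), BHLHE40 (0.979), PDRG1 (0.976) and MAP3K7CL (0.976). ZFAND2A averaged 29.5 CPM under CKI, 18.2 under Kushen and 27.99 under Baituling, a smaller step than that of PTGS2, and BHLHE40 averaged 234, 145 and 213. For PTGS1 they were OXSR1 (0.993), AKAP13 (0.991), ZNF106 (0.989), PRKAB2 (0.989) and ENSG00000246090 (0.989). OXSR1 moved far less than PTGS1, from 194 CPM under CKI to 172 under Baituling. For PLA2G4A they were RUNX1 (0.993), ZNF227 (0.993), PLEKHA8P1 (0.988), KDM7A-DT (0.984) and BAMBI (0.983). RUNX1 averaged 181, 159 and 135 CPM and BAMBI 46.7, 30.6 and 16.1 under CKI, Kushen and Baituling.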

How the data were processed

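RNA was sequenced from 9 libraries of MDA-MB-231 cells, 3 each under CKI, Kushen and Baituling, grouped by their labels. Per the labels and the methods of the study, the authors trimmed reads with Trim Galore 0.3.7, aligned them with STAR 2.5.3a to hg19 and deposited raw counts per gene. The counting program and annotation are not given in the sources used here, and strand was not kept. Table columns were matched to libraries by treatment initial and replicate number.

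Of 24566 rows, 222 repeated an Ensembl gene with identical counts and were dropped. Names and lengths came from GENCODE release 44 on GRCh37, the assembly of hg19, with 99 names from RefSeq on GRCh38.p14, and sequences from GRCh37. Genes were filtered with filterByExpr (minimum count 10, minimum total 15), scaled by TMM and fitted in 1 quasi-likelihood model with group as the only term (edgeR 4.0.16, R 4.3.3), which was tested on simulated data. P-values are two-sided, and the threshold is that of the study. SE is the log2 fold change over the root of F. Replicates differed by a chi-square per gene of 1.70 to 6.85, more than sampling noise.

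The 9 genes, lists and tests were chosen with earlier results of these data known, and lists of differential genes from the study had been seen, so none is independent evidence. Other pathway genes were named when called in at least 1 comparison and not below 0 in mean log2 CPM, at most 4 a list by largest log2 fold change, with counts alone for PLA2G2A, which passed the filter through Baituling, with the 5 genes most like PTGS1, PTGS2 and PLA2G4A by Pearson correlation. Alternatives covered scaling, test (DESeq2 1.42.0, limma 3.58.1), filter, groups fitted, replicate block, repeated rows and gene length, and each library was left out in turn, which for the ratio of PTGS2 to PTGS1 was added after the data were seen.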

Additional observations from a re-analysis of the deposited data

How the results depend on the processing

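Of 537 results of single prostaglandin genes under the alternatives, 534 kept their direction and their side of the call. The other 3 changed sign with library totals in place of TMM: PTGES2 in CKI versus Kushen (0.0119), PTGES in CKI versus Baituling (0.0621) and PTGES3 in Kushen versus Baituling (0.0142). At an adjusted p under 0.05, library totals left 5 of the 9 genes in CKI versus Baituling. DESeq2 left 5 of the 9 in CKI versus Kushen. Leaving out 1 library gave 4 to 7 of 9 by adjusted p in CKI versus Kushen, the lowest without the second CKI library, and 1, 3 and 3 genes called in the 3 comparisons each time. With at least 10 counts in every library PTGS1 was not tested and 2 genes were called in either comparison with Baituling.

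The counts of other pathway genes under the alternatives include genes that passed the filter through 1 group alone. In the main fit they are 2, 14 and 16 of 57, so they are not comparable with the counts of 52 genes above. For CKI versus Kushen glmTreat against a log2 fold change of 1 left 0. It was 1 with at least 10 counts in every library, 1 with only the 2 groups compared and 1 to 2 when 1 library was left out. The 2 of the main fit were ZFP36 and PLA2G5. PLA2G5, at 0 to 4 counts in both groups, passed the filter through Baituling alone, so its call is given for the count only. With at least 10 counts in every library 6 were called in either comparison with Baituling, and glmTreat left 7 in Kushen versus Baituling. Over all genes, glmTreat called 42, 1515 and 1029 in the 3 comparisons and the stricter filter 102, 1808 and 1415, in place of 270, 2715 and 2162. Of these, glmTreat tested the same 14195 genes against a log2 fold change of 1, and the stricter filter left 12735 genes to test. The share of calls that were higher in CKI than in Baituling moved from 58.6% to 80.0% with library totals and 48.9% with the stricter filter, and in Kushen versus Baituling from 55.8% to 74.6% and 47.2%.

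ZFP36 in Kushen versus Baituling, at -0.01, turned to 0.20 with library totals, 0.0623 with upper quartile scaling, 0.0262 with the stricter filter, 0.0049 with rows as deposited, 0.0108 with the 2 groups alone. Leaving out 1 library gave -0.170 to 0.140, above 0 without the first (0.0050) or the second (0.140) Kushen or the third Baituling library (0.134).

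Replicate numbers did not pair the libraries: deviations of same-numbered libraries correlated at -0.07 to 0.12 (9 pairs) and those of others at -0.15 to 0.18 (18 pairs). With the replicate block 1, 3 and 3 prostaglandin genes were called as before, and 269, 2713 and 2158 genes in all. The block took PTGES3 in CKI versus Kushen to an adjusted p of 0.0683. The cause of the changes was not tested. Depth limits HPGD, PTGS1 and PTGER2 most, at 8 to 52 counts in a Baituling library.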

Other observations

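ALOX5AP, which presents arachidonic acid to ALOX5, had 4, 5 and 15 counts under CKI, 5, 12 and 10 under Kushen and 25, 25 and 32 under Baituling, and is given for its values, which were seen before it was chosen, as is PTGER1. PTGER1, the gene of the EP1 receptor, had 5 to 19 counts in a library and was called in Kushen versus Baituling alone, at -1.09 ± 0.43 (edgeR adjusted p = 0.0290).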
